A study of Rattus norvegicus with 5 samples.

Results

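The SLC2A genes encode the GLUT carriers, membrane proteins that move mainly hexose sugars or, for Slc2a13, inositol. Of 8 members examined, Slc2a1, Slc2a3, Slc2a4, Slc2a5, Slc2a8 and Slc2a13 had probe sets annotated to a single symbol, 9 probe sets in all, and no values are given for Slc2a10 and Slc2a12. These 6 genes stand among 14217 genes with a probe set of 1 symbol on the array. The family was chosen from earlier results of the same arrays: Slc2a13 was selected on its diet difference, and the other members were set beside it by family name. The diet values of all members are therefore a description, with no test. All 9 probe sets passed the filter on dim probe sets, a mean log2 level above 4.28 over the arrays.

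The samples were 5 pieces of the mesenteric fat around the pancreas of male Wistar rats aged 7 weeks at the start, caged singly and kept on their diet for 30 days. In the cafeteria group, 2 rats ate a diet with 66% of calories as fat, and in the standard group, 3 rats ate chow with 8%. Each independent sample went on 1 GeneChip Rat Genome array. With 2 arrays against 3, the number of arrays limits the precision of every difference.

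In fat cells the best known of these carriers is Slc2a4 (GLUT4), which insulin moves from storage vesicles to the cell surface. Slc2a1 (GLUT1) carries basal glucose uptake in most cells. Slc2a13 (HMIT) belongs to the same family but cotransports protons with myo-inositol, the precursor of the phosphoinositide lipids, and is best described in brain.

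The arrays had medians of 5.70 to 5.75 and correlated at 0.987 to 0.994 across probe sets. Adipocyte markers fitted the labelled tissue, with all 12 listed genes past the filter and array means between 11.77 and 12.46. The array of standard replicate 1 stood apart: 18 pancreatic acinar genes averaged 7.80 there and 4.23 to 4.45 on the other 4 arrays. Between any pair of arrays, 11.7% to 14.7% of probe sets held exactly the same value, and 56.3% of probe sets had at least one such match. This touches Slc2a1 and Slc2a8 below, and why it occurs was not tested.

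Slc2a13 was the member that separated the diets. Its brighter probe set, 1389310_at, read 9.38 and 9.35 on the cafeteria arrays and 8.47, 7.96 and 8.21 on the standard arrays (replicates 1, 2 and 3). Both cafeteria arrays lay above all standard arrays, with a gap wider than the whole range of either diet. The means were 9.36 ± 0.02 (SD, n = 2) and 8.21 ± 0.26 (SD, n = 3), a difference of 1.15 ± 0.16 (SE) on the log2 scale, or 2.22-fold.

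The dimmer Slc2a13 probe set, 1369680_at, read 7.39 and 7.28 against 6.34, 6.38 and 6.37. The diets again did not overlap, and the difference was 0.97 ± 0.06 (SE), or 1.96-fold. The probe sets gave like differences but not like spreads. The standard arrays had an SD of 0.02 on the dimmer probe set and 0.26 on the brighter one, where standard replicate 2 was lowest and replicate 1 highest. Leaving out any single array kept the difference between 1.02 and 1.28 on the brighter probe set and between 0.92 and 1.03 on the dimmer one.

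**Figure D1:**
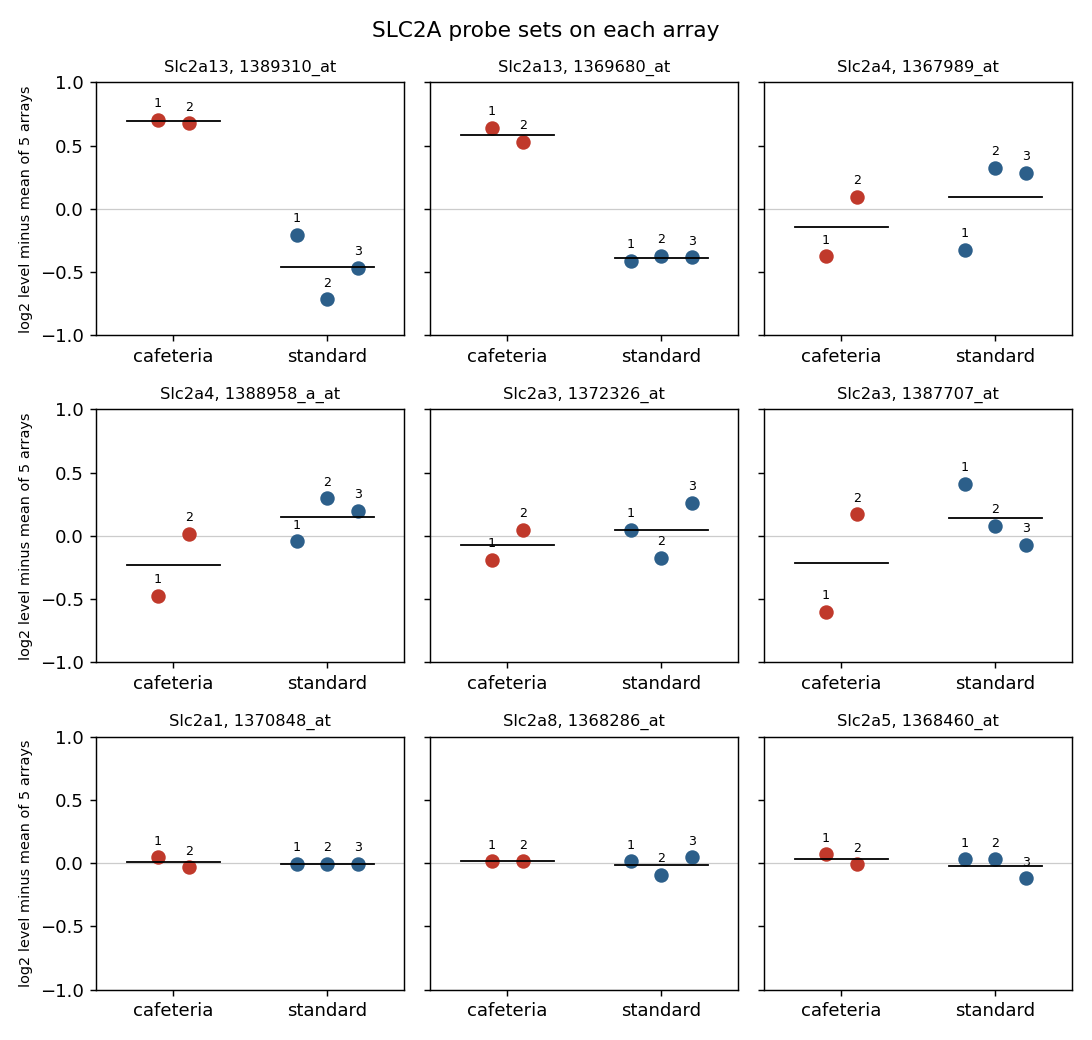
Log2 level of each SLC2A probe set on each array, minus the probe set's mean over the 5 arrays, by diet; numbers beside the points are replicate numbers and black lines are diet means. The cafeteria points lie above all standard points for both Slc2a13 probe sets, and the diets overlap for the other 7.

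The promoter of Slc2a13 is shown because it is the gene whose diets separated, with that of Slc2a1, a gene it is set against below. RefSeq promoter windows of build GRCr8 were found for 5 of the 8 members. The sequences are the 250 bases before the annotated start, 5′ to 3′ on the gene's strand. The Slc2a13 window is chr7:124606147-124606396 on the minus strand and the Slc2a1 window chr5:138002272-138002521 on the plus strand. Capitals mark GC boxes, the letters GGGCGG on either strand, the pattern that Sp1-type factors recognise.

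Slc2a13: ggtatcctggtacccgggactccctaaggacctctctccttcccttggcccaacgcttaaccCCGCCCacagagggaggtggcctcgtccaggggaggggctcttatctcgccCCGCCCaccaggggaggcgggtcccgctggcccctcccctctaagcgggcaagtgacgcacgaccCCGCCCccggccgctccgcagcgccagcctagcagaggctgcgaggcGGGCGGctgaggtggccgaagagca

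Slc2a1: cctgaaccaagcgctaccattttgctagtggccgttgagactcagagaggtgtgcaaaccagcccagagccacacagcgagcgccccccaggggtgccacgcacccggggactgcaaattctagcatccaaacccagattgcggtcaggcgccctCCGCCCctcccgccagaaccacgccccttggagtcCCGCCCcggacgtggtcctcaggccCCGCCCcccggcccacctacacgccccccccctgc

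The Slc2a13 window held 4 GC boxes, 71.2% G or C and 20 CpG pairs. The Slc2a1 window held 3 GC boxes, 68.4% G or C and 17 CpG pairs. Over all 33469 promoter windows of this length, 30.5% held a GC box, and the medians were 51.2% G or C and 5 CpG pairs. The windows of Slc2a5, Slc2a8 and Slc2a12 held 0 GC boxes. The E-box CACGTG, a core shared by the sugar-responsive MLX factors, was in 5.6% of all windows and in none of these 5. A match of letters is a description and not a measured binding site.

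Slc2a4, the insulin-responsive glucose carrier, did not separate the diets. Its brighter probe set, 1367989_at, read 8.97 and 9.44 on the cafeteria arrays and 9.02, 9.67 and 9.63 on the standard arrays. Cafeteria replicate 1 and standard replicate 1 were low, and the other 3 arrays were high, so the diets overlapped. The means were 9.20 ± 0.33 (SD, n = 2) and 9.44 ± 0.37 (SD, n = 3), a difference of -0.24 ± 0.27 (SE), smaller than the spread within either diet.

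The second Slc2a4 probe set, 1388958_a_at, read 7.60 and 8.09 against 8.03, 8.37 and 8.27, a difference of -0.38 ± 0.19 (SE). It also overlapped, since cafeteria replicate 2 lay above standard replicate 1. Single arrays decided the size on the brighter probe set: the difference was 0.00 without cafeteria replicate 1, -0.47 without cafeteria replicate 2 and -0.45 without standard replicate 1. It was -0.12 without standard replicate 2 and -0.14 without standard replicate 3. On the second probe set the difference stayed negative whichever array was left out. It ran from -0.13 without cafeteria replicate 1 to -0.63 without cafeteria replicate 2. Standard replicate 1, low for Slc2a4, is the array with the highest acinar mean, and it had the lowest adipocyte marker mean, 11.77. With an acinar covariate the difference on the brighter probe set was -0.42. That covariate mainly marks standard replicate 1, so an acinar part cannot be told apart from other traits of that array. The part of the adipocyte markers in the Slc2a4 value was not tested.

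Slc2a1, the basal glucose carrier, read 6.58 and 6.50 on the cafeteria arrays and an identical 6.53 on all 3 standard arrays. The difference was 0.01 ± 0.05 (SE). The standard SD of 0.00 is that of a repeated value and not a measure of how alike these rats were.

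Slc2a3, a high-affinity glucose carrier known from neurons, white blood cells and platelets, read 7.20 and 7.44 against 7.44, 7.22 and 7.65 on 1372326_at, a difference of -0.12 ± 0.16 (SE). Its other probe set, 1387707_at, read 5.04 and 5.81 against 6.05, 5.72 and 5.57, a difference of -0.36 ± 0.28 (SE). The diets overlapped on both, and the probe sets ordered the standard arrays differently: replicate 3 was highest on the first and lowest on the second. Without cafeteria replicate 1 the differences were 0.00 and 0.03, and without cafeteria replicate 2 they were -0.24 and -0.74.

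Slc2a8 (GLUT8), a carrier held mostly on inner membranes, read 7.38 on both cafeteria arrays and 7.38, 7.27 and 7.41 on the standard arrays, where 3 arrays shared exactly the same value. The difference was 0.02 ± 0.06 (SE). Slc2a5 (GLUT5), the fructose carrier, read 5.13 and 5.05 against 5.09, 5.09 and 4.94, a difference of 0.05 ± 0.07 (SE). Both genes overlapped between diets, and Slc2a5 was the dimmest member, at the 41.5th percentile of all probe sets by mean level.

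**Figure D2:**
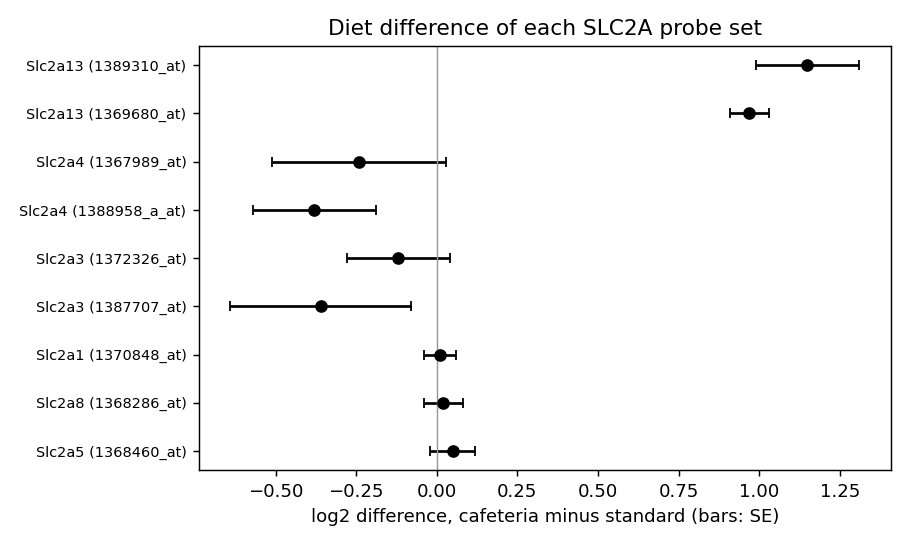
Difference of mean log2 level, cafeteria minus standard, for each SLC2A probe set, with bars of 1 moderated standard error. The Slc2a13 probe sets lie at 1.15 and 0.97, and the other 7 between -0.38 and 0.05.

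By gene, on the brightest probe set, 1 of 6 members had no overlap between diets, and 2 of the 9 probe sets did not overlap. Over the whole array, 27.4% of the 21729 probe sets kept had no overlap in either direction, and of 11509 genes 14.7% lay fully higher and 14.7% fully lower in cafeteria samples. Slc2a13 was selected on this contrast, so nothing is read from that count. The count also moved with single arrays: it was 2 of 6 without cafeteria replicate 1, 5 without cafeteria replicate 2 and 2 without standard replicate 1. Over all genes, 29.4% had no overlap in either direction with all arrays, and 61.7%, 56.6% and 37.5% under these 3 omissions, since fewer arrays separate more easily.

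Slc2a13 was also set against Slc2a4 and Slc2a1 as a ratio within each array, which cancels any shift common to an array. Slc2a13 was selected on its diet difference, so these ratios restate that difference and are a description. Relative to Slc2a4, and with the standard mean set to 0, the log2 ratio was 1.64 and 1.13 on the cafeteria arrays and 0.68, -0.49 and -0.19 on the standard arrays. The diet difference of the ratio was 1.39 ± 0.49 (SE), with no overlap. Relative to Slc2a1 it was 1.12 and 1.16 against 0.25, -0.26 and 0.00, a difference of 1.14 ± 0.19 (SE), also with no overlap. The arrays low for Slc2a4, replicate 1 of each diet, had the highest ratio to it within their diet.

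With the dimmer Slc2a13 probe set the ratio differences were 0.96 against Slc2a1, and 1.21 ± 0.34 and 1.35 ± 0.25 against the Slc2a4 probe sets. The repeated Slc2a1 value on the standard arrays makes the spread of both ratios to Slc2a1 that of Slc2a13 alone there, so their errors can be too small. No ratio shows that Slc2a4 or Slc2a1 stayed constant.

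**Figure D3:**
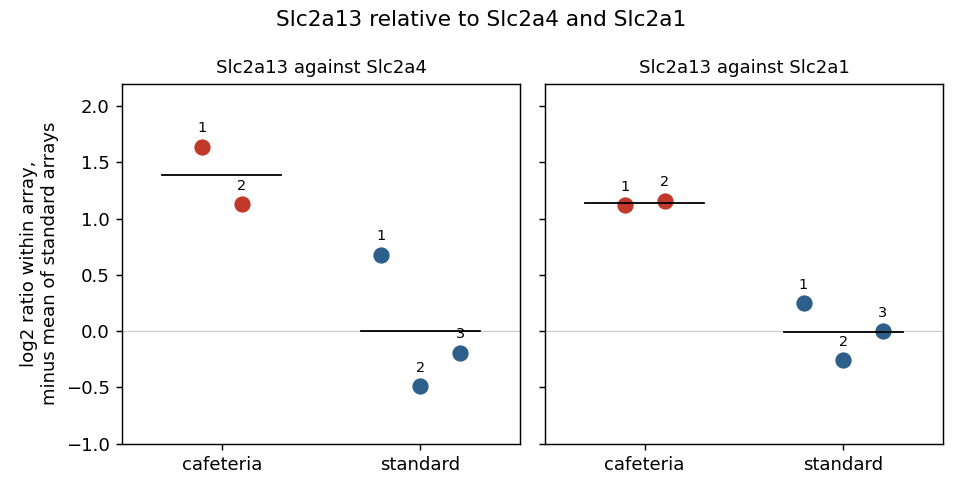
Log2 ratio of Slc2a13 to Slc2a4 (left) and to Slc2a1 (right) within each array, brightest probe sets, minus the mean of the standard arrays; numbers are replicate numbers and black lines are diet means. All cafeteria points lie above all standard points, and the standard arrays span more against Slc2a4 (-0.49 to 0.68) than against Slc2a1 (-0.26 to 0.25).

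Several cell type marker lists also differed between diets. Apart from an acinar covariate, given in the closing section, their part in the Slc2a13 difference was not tested. List means cover every listed gene on the array, while the numbers in brackets count genes past the filter. Of 13 marker lists, 5 had both cafeteria means above all standard means, 3 had both below and 5 overlapped. Over all genes, 29.4% had no overlap in either direction, a share for single genes and not for list means. Adipocyte markers (12 of 12 past the filter) averaged 12.27 and 12.46 against 11.77, 11.95 and 11.91, and stayed fully higher without leptin (Lep), their most different gene. Fibroblast and preadipocyte markers (9 of 10) averaged 10.47 and 10.39 against 10.19 to 10.30, but overlapped without Mfap5, which differed by 0.81. Schwann cell markers (7 of 7 on the array) averaged 7.95 and 8.03 against 7.62 to 7.79. Intestinal epithelium markers (3 of 9) averaged 4.12 and 4.06 against 3.90 to 3.95, below the filter value of 4.28 on every array. The erythroid list was higher by less than the printed rounding, at 7.19 and 7.55 against 7.12 to 7.19, and overlapped without Alas2.

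The endothelial, T cell and neuron lists had the lower means. Endothelial markers (12 of 14) averaged 8.21 and 8.68 against 8.78 to 8.89, and T cell markers (10 of 11) 5.60 and 5.10 against 5.61 to 6.04. Both stayed fully lower without their most different gene, and every remaining gene of either list lay lower. The T cell gap was narrow: cafeteria replicate 1 averaged 5.60 and standard replicate 3 averaged 5.61. Without Cd3g these arrays averaged 5.52 and 5.54. Neuron markers, of interest because Slc2a13 is a brain transporter, had 6 of 12 genes past the filter and means of 4.51 and 4.56 against 4.61 to 4.73. That rested on Snap25, which differed by -1.45: without it the other 11 split 5 higher and 6 lower, and the means overlapped at 4.40 and 4.47 against 4.38 to 4.52. Acinar genes were not uniformly low elsewhere: on the cafeteria arrays the carboxypeptidase Cpa1 read 7.38 and 9.07, and the elastase Cela3b 9.52 and 6.46. The Slc2a13 difference was 1.28 without standard replicate 1. In whole tissue, fewer cells of a type and less RNA per cell cannot be told apart.

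The genes whose 5-array profile lay nearest to that of Slc2a13 were sought among 11508 other genes by root mean square distance of mean-centred log2 values, taking each gene's closest probe set. They were Npr3 (distance 0.104), the natriuretic peptide clearance receptor, Eif1a (0.106), a translation initiation factor, and Obp3 (0.106), an odorant-binding lipocalin. Next came Grb14 (0.151), an adaptor that binds and restrains the insulin receptor, and Aspn (0.161), the matrix protein asporin. Npr3 read 8.70 and 8.89 against 8.11, 7.47 and 7.75, following the brighter Slc2a13 probe set also among the standard arrays. Grb14 read 8.98 and 9.16 against 7.94, 7.75 and 8.09. The nearest genes, here and for Slc2a4 below, were chosen for likeness over these same arrays, so their shared patterns follow from the search. The step between diets comes with that choice, since Slc2a13 was selected on it. The 2 probe sets of Slc2a13 lay 0.195 apart by the same measure, farther than all 5 of these genes, so their order is no finer than the disagreement between probe sets.

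The nearest profiles to Slc2a4 were Fasn (0.075), fatty acid synthase, Pygl (0.083), a glycogen phosphorylase, and Cmklr1 (0.085), the chemerin receptor. Fasn read 12.62 and 12.90 on the cafeteria arrays and 12.66, 13.20 and 13.15 on the standard arrays, with the same low pair as Slc2a4, cafeteria replicate 1 and standard replicate 1. Slc2a1 was nearest to Dpcd (0.001), Map4k1 (0.005) and Nle1 (0.007), which also held an identical value on 3 arrays, so this likeness is that of flat profiles.

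**Figure D4:**
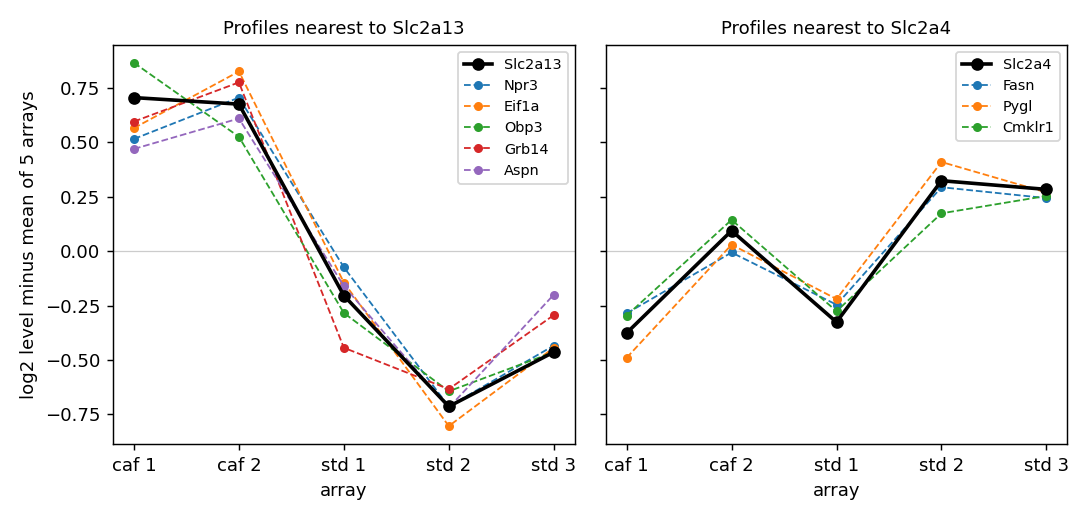
Log2 level minus the mean of the 5 arrays for Slc2a13 and its 5 nearest genes (left) and for Slc2a4 and its 3 nearest genes (right), on cafeteria (caf) and standard (std) arrays. The Slc2a13 group steps between the diets, and the Slc2a4 group dips on cafeteria replicate 1 and standard replicate 1. The nearest genes were chosen for this likeness.

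Genes around the transporters were read from 8 lists. No gene of any list passed limma's adjusted p of 0.05, nor did any gene on the array, 0%, where the smallest adjusted p was 0.0958 over all probe sets kept. An unmoderated fit also called 0, while 2754 of the 21729 probe sets had an unadjusted limma p under 0.05. At an unadjusted p under 0.05, 6.73% of all 11509 genes lay higher and 6.88% lower in cafeteria samples, and the median difference of all genes was 0.00. Without overlap between diets, 14.7% of these genes lay fully higher and 14.7% fully lower. The counts below use the brightest probe set past the filter. Some list genes are named whatever their values. The genes past the unadjusted threshold, and some others without overlap between diets, are also named, chosen after their values were seen. Not every gene without overlap is named.

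Of the other family members, Slc2a6 and Slc2a9 passed the filter and differed by 0.07 ± 0.08 and 0.09 ± 0.13 (SE), both with overlap. Slc2a2, the carrier of liver and beta cells, read 2.95 to 3.20 on all arrays, below the filter.

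The list of inositol synthesis and breakdown had 20 measured genes, 9 higher and 11 lower, with a median of -0.01. At the unadjusted threshold 1 lay higher and 2 lower, and 3 and 4 had no overlap in these directions. Isyna1, which makes inositol phosphate from glucose 6-phosphate, read 7.57 and 7.93 against 8.05, 8.20 and 8.06, a difference of -0.35 ± 0.13 (limma, adjusted p = 0.381). The others past the unadjusted threshold were the lipid kinase Pi4kb, at 0.36 ± 0.11, and the phosphatase Inpp5b, at -0.29 ± 0.11. The 2 phosphatases that release free inositol, Impa1 and Impa2, differed by 0.13 ± 0.12 and -0.02 ± 0.23 with overlap. Cdipt, which joins inositol to lipid, differed by 0.06 ± 0.05, and the inositol oxygenase Miox did not pass the filter.

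Among 9 measured sodium-coupled and other carriers, the median was 0.04, with 1 higher and 1 lower at the unadjusted threshold, and 1 fully higher and 2 fully lower. The sodium-coupled inositol carrier Slc5a3 read 7.32 and 7.33 against 7.13, 7.03 and 7.52, a difference of 0.10 ± 0.16 with overlap. Slc5a1, the gut glucose carrier, differed by 0.23 ± 0.06 near the filter, at 4.63 and 4.62 against 4.36 to 4.47 (limma, adjusted p = 0.299). It is itself 1 of the 9 intestinal epithelium markers, and the other 8 averaged 4.05 and 3.99 against 3.84 to 3.89. The gene lower at that threshold was Slc37a4, the glucose 6-phosphate carrier of the endoplasmic reticulum, at -0.36 ± 0.13.

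Of 25 genes of GLUT4 vesicle traffic, 9 lay higher and 16 lower, with a median of -0.04. At the unadjusted threshold 2 lay higher and 1 lower, and 5 and 4 had no overlap. The higher were the small GTPase Rab4a, at 0.29 ± 0.06, and the motor Myo1c, at 0.20 ± 0.07. Stx4, the syntaxin that receives GLUT4 vesicles at the surface, read 9.14 and 9.23 against 9.62, 9.43 and 9.44, a difference of -0.31 ± 0.08 (limma, adjusted p = 0.310). Sort1, the sorting receptor of these vesicles, differed by 0.31 ± 0.15 and 0.33 ± 0.07 on its probe sets, with no overlap on either (limma, adjusted p = 0.468 and 0.276). Tbc1d4, the Akt substrate that holds the vesicles back, differed by -0.15 ± 0.07, and Vamp2, their fusion protein, by 0.01 ± 0.21. The Lnpep probe sets, at 0.12 ± 0.08 and -0.19 ± 0.14, disagreed in sign, and Aspscr1, a tether of the vesicles, differed by 0.11 ± 0.07 near the filter.

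The 12 measured regulators of Slc2a4 transcription split evenly, 6 higher and 6 lower, with a median of 0.06. At the unadjusted threshold 0 lay higher and 1 lower, and 2 lay fully higher and 1 fully lower. Mef2c, of the MEF2 family that binds the Slc2a4 promoter, read 7.78 and 7.99 against 8.42, 8.32 and 8.74, a difference of -0.61 ± 0.15 (limma, adjusted p = 0.295). Its dimmer probe set overlapped, at -0.63 ± 0.59. Fully higher on the brightest probe set were Cebpa, at 0.27 ± 0.11, and Mef2d, at 0.23 ± 0.09. A dimmer Cebpa probe set was also fully higher, at 0.54 ± 0.20, and its others overlapped, at 0.18 to 0.34. The dimmer Mef2d probe set overlapped at 0.11 ± 0.07. On the brightest probe sets Pparg differed by 0.14 ± 0.12, Mef2a by -0.06 ± 0.10 and Klf15 by 0.22 ± 0.14, all with overlap. A dimmer Klf15 probe set gave 0.30 ± 0.07 without overlap (limma, adjusted p = 0.276), and a dimmer Mef2a probe set gave -0.14 ± 0.06, fully lower in cafeteria samples (limma, adjusted p = 0.410).

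Of 15 hexose phosphorylation, fructose and polyol enzymes, 9 lay higher and 6 lower, with a median of 0.11. At the unadjusted threshold 4 lay higher and 1 lower, and 5 lay fully higher and 1 fully lower. Akr1b1, the aldose reductase that turns glucose into sorbitol, read 12.09 and 12.51 on the cafeteria arrays and 11.54, 11.46 and 11.29 on the standard arrays. Its diets did not overlap, and the difference was 0.87 ± 0.16 (limma, adjusted p = 0.253). Its dimmer probe set gave 0.18 ± 0.08, also without overlap. Pfkfb3, which raises the glycolytic activator fructose 2,6-bisphosphate, also differed by 0.87 ± 0.16. Glyctk differed by 0.51 ± 0.15 and Adpgk by 0.41 ± 0.09, whereas Pfkfb4 differed by -0.45 ± 0.12. Dimmer probe sets past the filter overlapped for Glyctk (0.16 ± 0.11), Adpgk (0.15 ± 0.09) and Pfkfb4 (-0.12 ± 0.11). For Pfkfb3, a dimmer probe set overlapped at 0.03 ± 0.05 and another was fully higher at 0.68 ± 0.23. Sord, which oxidises sorbitol to fructose, differed by 0.24 ± 0.15 with overlap. The hexokinases Hk1 and Hk2 differed by 0.08 ± 0.14 and -0.01 ± 0.05, and the fructose kinase Khk by -0.08 ± 0.07. The list median was -0.01 without cafeteria replicate 2, 0.03 without standard replicate 1 and 0.19 without standard replicate 3.

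Of 9 carbohydrate response factors and targets, 8 lay lower and 1 higher, with a median of -0.17. At the unadjusted threshold 2 lay lower and 1 higher, and 3 lay fully lower and 1 fully higher. The higher gene was the hormone Fgf21, at 5.27 and 5.43 against 4.85, 4.85 and 4.69, a difference of 0.55 ± 0.09 (limma, adjusted p = 0.229, the smallest of the 8 lists). Mlxipl (ChREBP), the sugar-sensing factor that in fat acts downstream of Slc2a4, read 7.08 and 7.49 against 7.62, 8.26 and 8.19, a difference of -0.74 ± 0.25 (limma, adjusted p = 0.359). Its lowest array in each diet, replicate 1, was also the lowest for Slc2a4. Mlxip, its close relative, differed by -0.21 ± 0.05 on the brighter probe set. The dimmer Mlxip probe set, with an identical value on 4 arrays, differed by 0.01 ± 0.05 with overlap. Txnip, a glucose-induced gene, differed by -0.16 ± 0.09, and its relative Arrdc4 by -0.17 ± 0.13.

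Hypoxia response genes, of interest because Slc2a1 is a classical target of that pathway, had 10 of 18 higher and a median of 0.01. At the unadjusted threshold 2 lay higher and 0 lower, and 3 lay fully higher and 1 fully lower. Bnip3, a mitophagy receptor, read 11.09 and 11.12 against 10.32, 10.51 and 10.70, a difference of 0.59 ± 0.12 (limma, adjusted p = 0.271). The glycolytic genes Ldha and Pgk1 were fully higher, at 0.29 ± 0.06 and 0.22 ± 0.09, and Eno1 fully lower, at -0.16 ± 0.08. Hif1a differed by -0.02 ± 0.05, Vegfa by -0.03 ± 0.23 and Pdk1 by 0.03 ± 0.24, all with overlap.

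**Figure D5:**
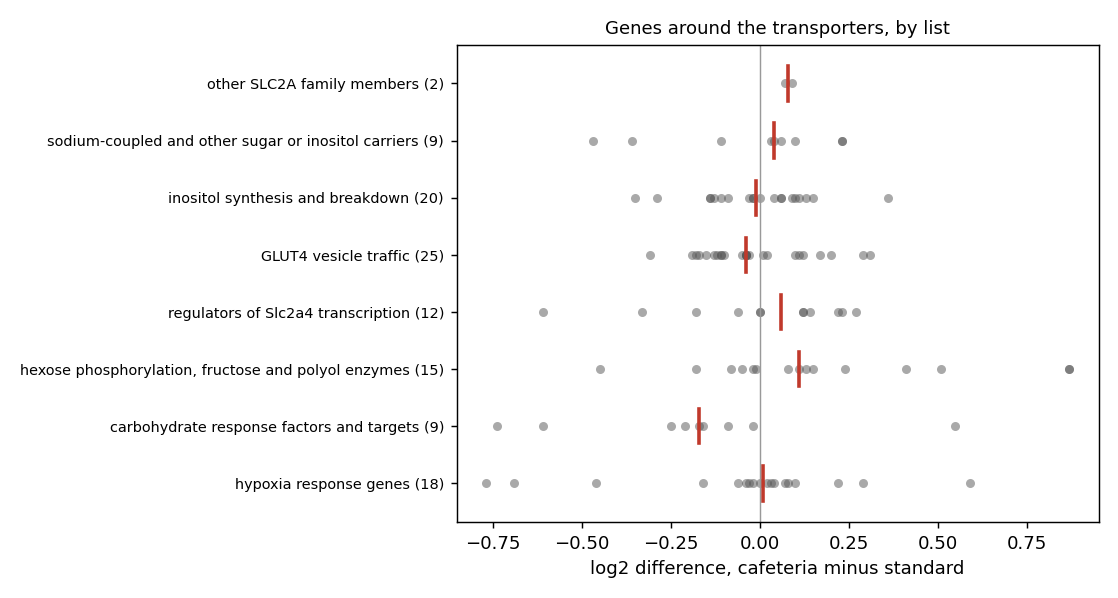
Log2 difference, cafeteria minus standard, of each measured gene (grey points, brightest probe set past the filter) in the 8 lists, with the number of genes in brackets and a red bar at the list median; the vertical line is the median of all genes, 0.00. Medians run from -0.17 for carbohydrate response to 0.11 for the hexose and polyol enzymes.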

How the data were processed

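The deposited log2 expression levels, 1 value per probe set and array, were used as the authors made them, by RMA in affy per the submitters' processing notes, with no versions stated. RMA makes array distributions alike, which can hide a shift common to most transcripts. The 57 control probe sets of 31099 were left out, and probe sets with a mean above the 30th percentile were kept, 21729 in all. The cafeteria and standard arrays entered a limma 3.58.1 linear model with empirical Bayes moderation, run under R 4.3.3 (3 residual and 1.50 prior degrees of freedom), two-sided, with Benjamini-Hochberg adjustment over all probe sets kept. Standard errors are moderated, except those of within-array ratios, which come from the 5 ratios. The code was tested on simulated arrays.

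Symbols came from GEO's platform annotation: 20826 probe sets had 1 symbol, 436 several and 9780 none. Counts by gene use its brightest probe set, and every probe set of the members is given. The genome build of the array is not given in the sources used here. Promoter sequences came from RefSeq.

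Members and lists were chosen with earlier results of these data known. The genes named are all members, the nearest profiles (5 for Slc2a13, 3 for Slc2a4 and Slc2a1) and list genes named whatever their values. List genes past the unadjusted threshold, and some others without overlap between diets, were added later. P-values weigh each diet difference against the moderated spread between samples of the same diet. Figures used matplotlib 3.10.9 in Python 3.11.15.

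Alternatives were quantile normalization, cyclic loess, array weights, a replicate block, an acinar covariate (first used after the data were seen), other filters and variance models, the mean over a gene's probe sets, and leaving out each array. Marker lists without single genes were added after seeing the data. Titles number the replicates in both diets, but nothing says that equal numbers pair samples.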

Additional observations from a re-analysis of the deposited data

How the results depend on the processing

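The Slc2a13 difference kept its direction in all alternatives run, from 1.02 to 1.28 over arrays left out, and so did both ratios. The Slc2a1 difference, beside an SD near 0, was 0.07 after quantile normalization and ranged from -0.03 to 0.05 over arrays left out. Members without overlap numbered 3 of 6 after quantile normalization, beside 39.2% of all genes, and 1 to 5 over arrays left out, 5 being without cafeteria replicate 2, beside 56.6% of all genes. Fits with a single cafeteria array assume that it varies like the standard arrays. With a replicate block the differences were 1.15 for Slc2a13, -0.14 for Slc2a4 and 0.01 for Slc2a1, and 2206 probe sets had an unadjusted p under 0.05 against 2754. Standard replicate 3 has no cafeteria array of its number, so these differences equal those without that array and are no separate check. The numbers were not taken as pairs because nothing says that they pair samples. The deviations of same-numbered arrays correlated at 0.08 and -0.04, which cannot exclude pairs with so few arrays. With an acinar covariate Slc2a13 was at 1.26 and Slc2a4 at -0.42.

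No alternative gave a probe set past the adjusted threshold in limma or without moderation. Counts at an unadjusted p under 0.05 ran from 1981 to 4171 over arrays left out, the highest without cafeteria replicate 1, and fell to 1874 without moderation. Of 80 list medians under alternatives, 70 moved by less than the spread between arrays, and so did all 33 differences of Slc2a3, Slc2a5 and Slc2a8.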
